A study of Mus musculus with 240 samples.

Results

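The libraries described here each hold the RNA of about 10 mutant oligodendrocyte precursor cells (OPCs) taken from mouse brain, 56 collected 12 days and 56 collected 90 days after the start of tamoxifen (days post induction, dpi). They were chosen from the 240 libraries of the series by their titles, which name a 10-cell OPC sample and a time, and the spike-in features were set aside. Both times carry the same genotype, Trp53-/- Nf1-/-, so the contrast is one of time in mutant cells, and no 10-cell library of wild-type OPCs was analysed here. By their titles the 12 dpi libraries form a numbered series (opc12) and the 90 dpi libraries another (opc90). Time therefore cannot be told apart from any difference between the series of libraries. Cells were captured by laser from 8 µm frozen sections, polyadenylated RNA was amplified by PCR, and each library was tagged by sex and a number. Sex and number define 4 sets per time (female 1, female 2, male 1 and male 2), with 14 libraries in each set. A set was the unit of replication, and values of 4 sets are given in that order. What the number stands for (an animal, a section or a capture day) is not given in the labels, so the p-values measure the spread between sets, which may be partly technical. The promoter that drove Cre is likewise not given in the labels.

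OPCs are the dividing glial progenitors of the brain. They carry the receptor Pdgfra and the proteoglycan Cspg4 (NG2), and they mature through a committed, premyelinating stage into oligodendrocytes, which wrap axons in myelin built from proteins such as Mbp and Mog. Nf1 encodes neurofibromin, which switches RAS off, and Trp53 encodes p53, which halts or removes damaged cells. Loss of both in OPCs is an established mouse route to malignant glioma, and 12 and 90 dpi precede the tumours of the series. The 10-cell design measures how small groups of cells differ from one another. Its technical counterpart is the pool-and-split control, in which many captured cells are pooled and divided into 10-cell equivalents. Here the 80 pool-and-split libraries of the same genotype and times (10 per set) and the 18 bulk libraries of the same genotype (CKO; 14 animals, 7 per time) served as comparisons. By their titles the pool-and-split libraries belong to the same opc12 and opc90 series, so time cannot be told apart from the series in them either. The bulk libraries, titled as tdT-positive samples of single animals, were made with another amplification than the 10-cell libraries.

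The 10-cell libraries held 1639364 to 6489230 counts at 12 dpi and 2806492 to 5050700 at 90 dpi. No pair of libraries held identical values. The median correlation of log2 values across genes with a mean of at least 10 counts was 0.465 over 728 pairs of libraries of 1 set and 0.449 over 5488 pairs from different sets. Of 56 male libraries, 1 had a summed level of the Y-linked genes Ddx3y and Eif2s3y no higher than the highest female library. Among OPC markers, Cspg4 had a count in all 56 libraries at each time, Pdgfra in 36 at 12 dpi and 49 at 90 dpi, Olig2 in 35 and 48, and Sox10 in 27 and 48. Spike-ins took over 10% of the counts in 12 libraries at 12 dpi and in 0 at 90 dpi. Expression levels below are counts per 1000000 (CPM) of a set's summed, TMM-scaled counts. Changes are log2 of 90 over 12 dpi from edgeR's quasi-likelihood fit with sex as a covariate, and p-values were adjusted by Benjamini-Hochberg over all genes tested.

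No single gene passed the test between the times. In edgeR, 0 of 15178 genes (0.00%) had an adjusted p under 0.05, and the smallest adjusted p was 0.358. At an unadjusted p under 0.05 there were 1118 genes, 493 higher (3.25%) and 625 lower (4.12%) at 90 dpi. The 4 sets of one time lay wholly above those of the other for 486 genes higher at 90 dpi (3.20%) and for 346 lower (2.28%). DESeq2 called 331 of the same genes, 189 higher and 142 lower. The spread between sets was wide. edgeR's common coefficient of biological variation was 0.995 for 10-cell sets, 1.13 for pool-and-split sets and 0.418 for bulk animals. The pool-and-split sets gave 0 calls of 14220 genes and the bulk animals 0 of 16346 by the same test (1122 and 692 at an unadjusted p under 0.05), and DESeq2 called 588 and 2. Since edgeR called 0 genes, the gene and group values that follow are descriptions. Most of the 99 genes named follow one rule for naming, and those chosen after their values were seen are listed with the processing.

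The targeted genes are given first. Nf1 (ENSMUSG00000020716, chr11:79339693-79581612, GRCm38) was at 0.537, 148, 7.49 and 0.477 CPM in the 12 dpi sets and at 6.53, 27.1, 3.72 and 10.2 CPM in the 90 dpi sets. A single library held 89.4% of the 12 dpi counts, and the groups overlapped (log2 change −0.67, SE 1.59, adjusted p = 0.946). Trp53 (ENSMUSG00000059552, chr11:69580359-69591873) was at 17.2, 0.873, 18.0 and 5.27 CPM at 12 dpi and at 7.18, 9.56, 2.28 and 12.8 CPM at 90 dpi (−0.37, SE 1.05, adjusted p = 0.961). Which exons were deleted is not given in the labels, and a count over the whole gene cannot tell an intact transcript from one that lacks part of it, so these values do not check the genotype.

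Oligodendrocyte and myelin genes had the highest median among the gene lists in edgeR. The median log2 change of the 22 members was 2.05, against −0.04 over all genes tested, and 21 of 22 were higher at 90 dpi. At an unadjusted p under 0.05, 11 of 22 were higher and 0 lower, and for 6 of 22 the 90 dpi sets lay wholly above the 12 dpi sets. The members' summed level was 1698, 4119, 3683 and 2411 CPM in the 12 dpi sets and 7394, 5452, 7186 and 6414 CPM in the 90 dpi sets, without overlap. None of the members passed the adjusted test. DESeq2 called 5 of 22, none of them lower. Relative to the median of all genes, the list's median was 1.41 to 2.33 over 20 alternative settings. Without the libraries of over 10% spike-ins the list median itself was 2.01, with 21 of 22 higher. The list ranked highest in 17 of the 20 alternatives. The microglia list was above it with set means of log2 values (2.05 against 1.88) and with set medians (2.62 against 2.15), and the mitosis list was above it without the male 2 set at 12 dpi (2.36 against 2.19).

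The promoter sequences of 3 members with large differences, Ermn, Aspa and Gjb1, are shown because they are the regulatory DNA of genes that were near 0 in the 12 dpi sets. Each runs 5′ to 3′ from 250 bases before to 50 bases after the annotated start in RefSeq (GRCm38.p6). Ermn lies at chr2:58052815-58053114 on the minus strand, Aspa at chr11:73324588-73324887 on the minus strand and the first of 4 annotated Gjb1 starts at chrX:101376126-101376425 on the plus strand. Capitals mark matches, on either strand, to AACAAT, a core of SOX-family sites. CTGGCAC and CTGGTAC, core motifs of the myelin regulator Myrf, were searched the same way and were not found in these 3 windows.
Ermn: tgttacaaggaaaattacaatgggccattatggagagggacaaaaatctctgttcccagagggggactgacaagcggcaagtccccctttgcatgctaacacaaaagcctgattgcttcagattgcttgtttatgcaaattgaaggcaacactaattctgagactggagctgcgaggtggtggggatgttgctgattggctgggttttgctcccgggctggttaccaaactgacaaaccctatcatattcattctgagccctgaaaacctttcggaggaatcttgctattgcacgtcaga
Aspa: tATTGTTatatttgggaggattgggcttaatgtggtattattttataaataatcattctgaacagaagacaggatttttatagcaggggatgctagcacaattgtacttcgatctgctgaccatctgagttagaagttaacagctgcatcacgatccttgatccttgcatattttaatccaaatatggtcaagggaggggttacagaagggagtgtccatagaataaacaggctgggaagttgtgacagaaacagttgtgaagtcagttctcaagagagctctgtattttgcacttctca
Gjb1: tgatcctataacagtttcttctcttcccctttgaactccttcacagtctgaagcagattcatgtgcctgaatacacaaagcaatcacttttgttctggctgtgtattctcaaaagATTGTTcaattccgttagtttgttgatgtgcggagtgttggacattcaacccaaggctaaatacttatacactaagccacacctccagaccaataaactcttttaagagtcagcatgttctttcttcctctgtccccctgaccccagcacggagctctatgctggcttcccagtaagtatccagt
The Aspa and Gjb1 windows each hold 1 AACAAT match, read from the opposite strand, and the Ermn window holds none. The windows of the other 3 Gjb1 starts hold no match to any of the motifs. The window of Hapln2, another member near 0 at 12 dpi, holds 1 CTGGCAC and 1 AACAAT and is not shown. Over all 32851 promoters of the table, 10.7% hold AACAAT, 5.01% CTGGCAC and 2.24% CTGGTAC. Of the 22 list members, 17 were in the table, with 24 promoters, of which 5 hold AACAAT, 5 CTGGCAC and 1 CTGGTAC. A match of this kind is a description of the letters and not a binding site.

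Ermn, an actin-binding protein of mature myelin sheaths, was at 1.29, 0.914, 2.26 and 1.29 CPM at 12 dpi and at 11.1, 17.3, 49.2 and 17.4 CPM at 90 dpi, so the lowest 90 dpi set was above the highest 12 dpi set. The log2 change was 3.96 (SE 0.79, unadjusted p = 0.000734, adjusted p = 0.568 in edgeR). Ermn had a count in 12 of 56 libraries at 12 dpi and in 30 at 90 dpi. Aspa, which cleaves N-acetylaspartate to feed acetate to myelin lipids, was at 0.253, 1.87, 0.451 and 3.18 CPM and then at 6.22, 22.1, 62.8 and 16.9 CPM (log2 change 4.10, SE 1.11), also without overlap.

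The connexin Gjb1 was detected in 3 of 56 libraries at 12 dpi and in 15 of 56 at 90 dpi, with set levels of 0, 0.873, 0.343 and 0 CPM and then 3.75, 5.23, 10.7 and 2.10 CPM (4.27, SE 1.89). Car2, a carbonic anhydrase of oligodendrocytes, was at 61.3, 52.2, 38.7 and 54.7 CPM and then at 143, 115, 145 and 99.9 CPM (1.29, SE 0.35), again without overlap. Cnp, the myelin enzyme CNPase, overlapped because the male 1 set at 12 dpi was at 466 CPM, with 178, 211 and 206 CPM in the others and 302, 504, 1053 and 641 CPM at 90 dpi. Hapln2, a matrix link protein of nodes of Ranvier, was another member without overlap, at no more than 0.679 CPM at 12 dpi and at 0.759 to 3.75 CPM at 90 dpi.

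Other myelin genes overlapped between the times. Mbp, which holds the compacted myelin membranes together, was at 603, 499, 531 and 521 CPM at 12 dpi and at 345, 694, 862 and 918 CPM at 90 dpi, with the female 1 set at 90 dpi the lowest of all 8 (0.34, SE 0.29, unadjusted p = 0.272). Mog ran from 0 to 104 CPM at 12 dpi and from 19.4 to 115 CPM at 90 dpi (2.21, SE 2.54), since the female 2 set at 12 dpi was close to the highest 90 dpi set. Mag, the myelin-associated glycoprotein, was spread likewise, 0.447 to 135 CPM against 40.2 to 228 CPM (1.93, SE 1.22). Qdpr, a pterin reductase found in oligodendrocytes, had the only negative change of the list (−0.30, SE 0.47).

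**Figure D1:**
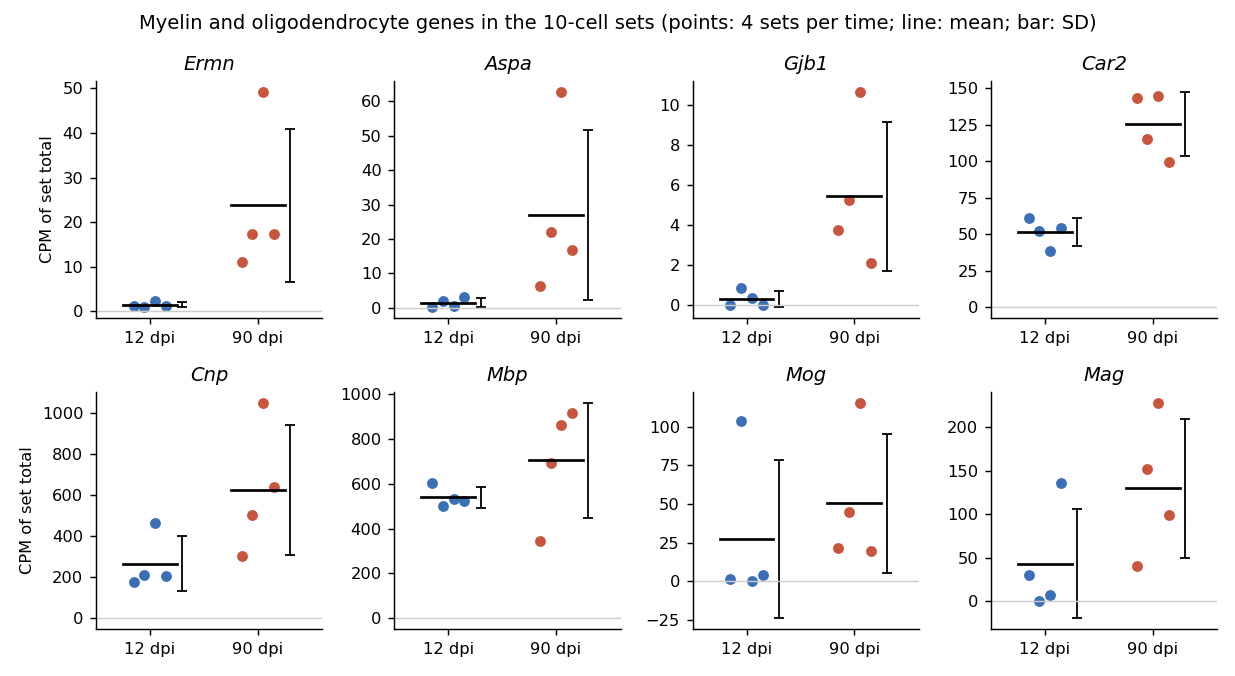
Levels of 8 oligodendrocyte and myelin genes (y axes, CPM of the set total) in the 4 sets at 12 dpi (blue) and the 4 sets at 90 dpi (red), with the mean (line) and SD (bar). The groups are apart for Ermn, Aspa, Gjb1 and Car2 (highest 12 dpi set 61.3 CPM, lowest 90 dpi set 99.9 CPM) and overlap for Cnp, Mbp, Mog and Mag.

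The range over single libraries was wider than that over sets. The summed level of the 22 members ran from 3.66 to 14393 CPM over the 56 libraries at 12 dpi (median 1656) and from 210 to 67991 CPM at 90 dpi (median 4157). The set medians over libraries were 1340, 2836, 1781 and 1164 CPM at 12 dpi and 2421, 5588, 6290 and 5208 CPM at 90 dpi, and these overlapped because the female 1 set at 90 dpi lay below the female 2 set at 12 dpi. After each library was thinned to 1639364 counts, the members had a count in a median of 33.9% of libraries at 12 dpi and 70.5% at 90 dpi. But detection after thinning was also higher over all genes tested, 42.9% and 60.7%. That wider shift in detection moved with the myelin result, and its part in the result was not tested.

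The pool-and-split and bulk libraries give the same genes in material of many cells. For bulk, averaging over cells cannot be told apart from the other kind of sample and amplification. In the pool-and-split sets the median change of the list was 1.08, with 15 of 22 higher at 90 dpi, and in the bulk animals it was −0.05, with 9 of 22 higher. Ermn, Aspa and Car2, high at 90 dpi in the 10-cell sets, had negative pool-and-split values of −0.36 (SE 1.75), −1.08 (SE 2.10) and −0.34 (SE 0.58). Gjb1 and Hapln2, also without overlap in the 10-cell sets, had positive ones of 1.85 (SE 4.06) and 1.19 (SE 1.36). Each of these values was smaller than its SE. For Car2 the difference between the 10-cell and pool-and-split changes had an unadjusted p of 0.0242 and an adjusted p of 1 in edgeR. A test of the change over time between the 10-cell and pool-and-split libraries called 0 of 16831 genes in edgeR (775 at an unadjusted p under 0.05), and DESeq2 called 396, so no gene can be called different between the library types by the main test. In these samples more cells of a type and more RNA per cell cannot be told apart.

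The list of committed, premyelinating OPC genes held 16 tested members with a median change of 0.33, 11 of them higher at 90 dpi. At an unadjusted p under 0.05 there were 2 higher and 0 lower, and 3 members did not overlap, all higher at 90 dpi. Enpp6, a choline phosphodiesterase that marks newly forming oligodendrocytes, was at 22.3, 0, 0 and 0.955 CPM at 12 dpi and at 77.9, 22.5, 24.9 and 74.9 CPM at 90 dpi, with a count in 5 of 56 and 31 of 56 libraries. Its log2 change was 4.41 with an SE of 2.32. Itpr2, an internal calcium channel, was at 17.6, 16.5, 30.5 and 49.9 CPM and then at 76.9, 75.3, 51.7 and 112.2 CPM. Bcas1, a marker of early myelinating cells, was at 43.4, 38.4, 23.9 and 6.68 CPM and then at 117, 64.7, 68.3 and 73.7 CPM. Itpr2 and Bcas1 were the 2 members with an unadjusted p under 0.05. Myrf, the transcription factor that switches on myelin genes, had a change of 3.75 (SE 1.70), and Cnksr3 one of 4.20 (SE 2.23).

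Other members of the committed stage had negative values. The transcription factor Tcf7l2 was at −1.52 (SE 1.33), and Mycl was at −3.23 (SE 3.90), with 99.4% of its 12 dpi counts in 1 library. In the pool-and-split sets the median of the list was 1.24 and in bulk 0.14.

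OPC identity genes had a median close to that of all genes in the 10-cell fit, and its sign depended on the setting. Of 24 members 11 were higher at 90 dpi, the median change was −0.10, and 2 were higher (Sox5 and Pllp) and 1 lower (Gpr37l1) at an unadjusted p under 0.05. Relative to all genes the median ran from −0.23 with spike-in scaling to 0.59 with set medians, and was 0.44 with set means, where 24 of 24 were positive, and 0.43 with voom. Leaving out each set in turn gave medians from −0.21 to 0.14. In the pool-and-split sets 16 of 23 were positive (median 0.48), and in bulk 22 of 24 (median 0.24). Their summed level was 3154, 1972, 1612 and 3148 CPM at 12 dpi and 3092, 1987, 1846 and 1903 CPM at 90 dpi. Pdgfra was at 124, 5.83, 6.28 and 55.3 CPM at 12 dpi and at 55.2, 19.8, 38.5 and 15.0 CPM at 90 dpi (−0.50, SE 0.97). Cspg4 was at 196, 254, 48.6 and 195 CPM and then at 129, 90.7, 54.5 and 157 CPM (−0.62, SE 0.53). The lineage factors Olig2 (−0.27, SE 0.79) and Sox10 (0.61, SE 0.75) overlapped as well, Olig2 with 82.4 CPM in the male 2 set at 12 dpi and 14.7 to 25.2 CPM in the others. Sox5, which holds OPCs in the immature state with Sox6, had the largest positive value (2.82, SE 1.05), followed by Nkx2-2 (2.20, SE 1.56). Pllp, which encodes the myelin protein plasmolipin, was the only member whose sets did not overlap, at 48.9, 14.9, 22.4 and 37.8 CPM and then at 70.8, 67.8, 91.0 and 113 CPM (1.44, SE 0.50). The receptor gene Gpr37l1 was at −0.71 (SE 0.29). The cell adhesion gene Opcml (−1.44, SE 0.71) and the proteoglycan gene Cspg5 (−0.81, SE 0.56) had the lowest.

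**Figure D2:**
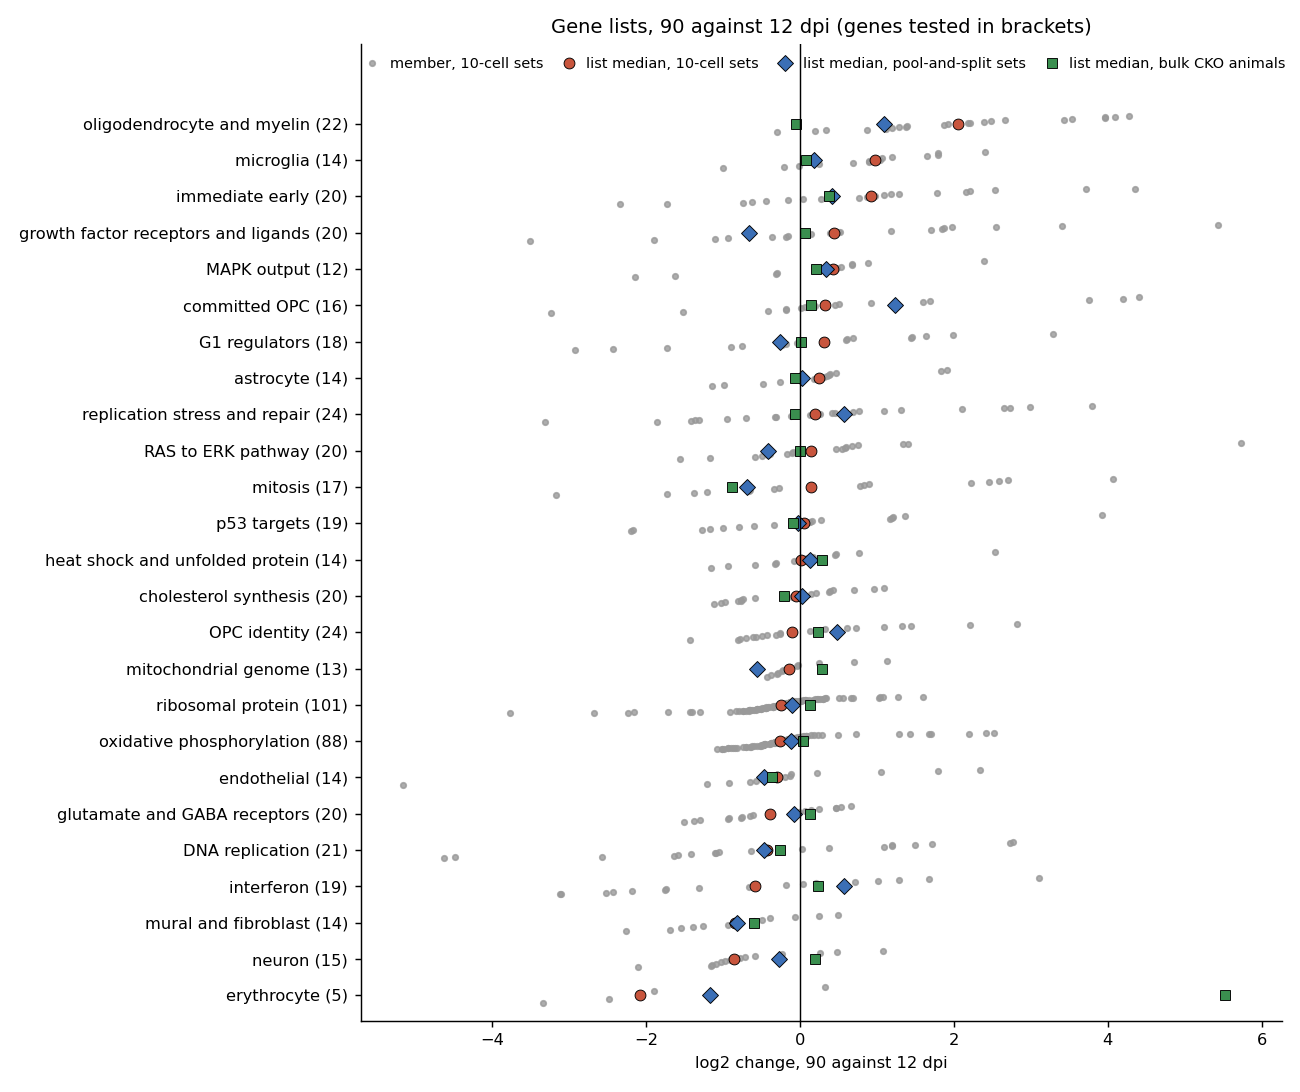
Log2 changes from 12 to 90 dpi (x axis) for the 25 gene lists (y axis, number of genes tested in brackets), with each member in the 10-cell sets as a grey point and the list median in 10-cell sets (red), pool-and-split sets (blue) and bulk CKO animals (green). The oligodendrocyte and myelin list is highest in the 10-cell sets with a median of 2.05 and the erythrocyte list lowest with −2.09.

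Levels of genes of other brain cells were examined beside the myelin result. The 15 neuron genes had a median of −0.86 with 3 of 15 higher at 90 dpi, and 1 was higher (Slc17a7) and 5 lower (Snap25, Syt1, Stmn2, Gad1 and Syn1) at an unadjusted p under 0.05. Their sum was 4634, 5382, 3983 and 5586 CPM at 12 dpi and 2939, 2635, 3090 and 2629 CPM at 90 dpi, without overlap. Snap25, a protein of synaptic vesicle fusion, was at 582, 867, 763 and 973 CPM and then at 478, 376, 437 and 318 CPM. Stmn2, a regulator of axonal microtubules, was at 336, 411, 176 and 379 CPM and then at 131, 150, 142 and 153 CPM. Slc17a7, the vesicular glutamate transporter of cortical excitatory neurons, was higher at 90 dpi, at 24.9 to 33.7 CPM and then at 54.4 to 75.5 CPM. The GABA-synthesizing enzyme gene Gad1 was at 842 to 1667 CPM at 12 dpi and at 515 to 978 CPM at 90 dpi (−0.91, SE 0.28), and the synaptic genes Syt1 and Syn1 were at −0.78 and −0.86. The transporter Slc17a6 was at −2.11 (SE 1.01) and the neurofilament gene Nefm at 0.48 (SE 0.80). The pool-and-split median of the neuron list was −0.27 and the bulk median 0.20. The sign of the neuron list depended on scaling: 14 of 15 members were positive with spike-in scaling, 10 with means of log2 values over libraries and 8 with voom. Relative to all genes its median stayed between −0.99 and −0.15 over the 20 settings.

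Microglial genes were mostly higher at 90 dpi in the 10-cell sets. Of 14 members 11 were higher, the median was 0.97, and 2 did not overlap, both higher at 90 dpi. C1qb, a complement subunit, was at 35.4, 58.9, 16.5 and 32.9 CPM and then at 98.4, 76.4, 192 and 127 CPM. Its partner C1qa was at 2.57, 8.22, 8.01 and 0.734 CPM and then at 9.71, 19.3, 58.7 and 32.9 CPM. The purinergic receptor P2ry12 was at 1.80 (SE 0.86), and Ptprc (−1.001, SE 7.28) and Ctss (−0.22, SE 1.26) were the lowest. The summed microglial level overlapped, 201 to 808 CPM against 416 to 1443 CPM, with the male sets at 90 dpi highest. Relative to all genes the median of the list was 0.76 to 2.13 over the 20 settings.

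The 14 astrocyte genes had a median of 0.25 with 10 of 14 higher (−0.13 without the female 1 set at 12 dpi and −0.06 without the female 1 set at 90 dpi), and sums of 3673 to 6679 CPM at 12 dpi and 4196 to 6026 CPM at 90 dpi. Gfap, the intermediate filament of reactive astrocytes, was at 41.9, 14.6, 34.7 and 44.7 CPM and then at 82.6, 57.7, 152 and 250 CPM (1.83, SE 0.49), while the glutamate transporter Slc1a3 was at 259, 164, 280 and 403 CPM and then at 174, 113, 105 and 102 CPM (−1.14, SE 0.37). Sox9 was at 1.91 (SE 1.01) and the bicarbonate transporter Slc4a4 at −0.99 (SE 0.61). The part of neuronal, microglial and astrocytic RNA in the myelin values was not tested.

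Genes of red blood cells had the lowest median of the lists. The 5 erythrocyte genes had a median of −2.09, and 4 of 5 were lower at an unadjusted p under 0.05. The beta-globin gene Hbb-bs was at 800, 2491, 7844 and 7013 CPM and then at 258, 698, 464 and 1163 CPM (−2.49, SE 0.53), with −1.17 in the pool-and-split sets and 6.53 in bulk. The other 3 with an unadjusted p under 0.05 were the globin genes Hbb-bt (−3.35), Hba-a1 (−2.09) and Hba-a2 (−1.90). The erythroid enzyme Alas2 was at 0.33 (SE 2.91). Hbb-bt is nearly identical to Hbb-bs, and Hba-a1 to Hba-a2, so the split of counts among them is uncertain. With spike-in scaling the erythrocyte median was 0.06, where that of all genes was 1.47. Of 14 endothelial genes 4 were higher, with a median of −0.31. Its sign rested on the female 2 set at 12 dpi, without which the median was 0.65 with 10 of 14 higher. With the replicate block it was 0.08, and relative to all genes it ran from −0.66 to 0.73 over the 20 settings. Itm2a, a membrane protein of vessels and muscle, was at 110, 84.8, 73.3 and 98.9 CPM at 12 dpi and at 12.2, 41.7, 0.018 and 0.399 CPM at 90 dpi, with a count in 47 of 56 and 29 of 56 libraries (−5.17, SE 1.94), and its pool-and-split change was −5.18. The glucose transporter Slc2a1 was at −1.21, and the junction genes Pecam1 and Cdh5 at 1.79 and 2.34.

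Among genes expressed above the median, 8 per direction had the smallest p. Of those higher at 90 dpi, several are copies of other transcripts. Gm28661 (chr1:24614885-24615565), a pseudogene nearly identical to the mitochondrial gene mt-Co2, was at 549, 596, 435 and 361 CPM and then at 1880, 1752, 965 and 1947 CPM (1.77, unadjusted p = 4.36e-05), while mt-Co2 itself was at −0.43. Gm8797, a near copy of the ubiquitin gene Ubb, was at 32.8, 65.6, 28.1 and 30.9 CPM and then at 181, 151, 151 and 115 CPM (1.96), and 1.73 in the pool-and-split sets. Rps26-ps1, a ribosomal protein pseudogene, was at 8.13, 7.17, 10.5 and 7.75 CPM and then at 44.3, 56.9, 35.2 and 30.6 CPM (2.29), and 2.07 in the pool-and-split sets. Counts of such genes depend on how reads shared with their copies were divided, and are uncertain.

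Bag3, a partner of heat-shock chaperones in protein clearance, was at 1.93, 7.51, 2.71 and 5.58 CPM and then at 37.0, 14.8, 42.9 and 70.3 CPM (3.11, SE 0.78), against −0.24 in the pool-and-split sets. The mitochondrial complex I subunit mt-Nd3 was at 674, 1453, 1107 and 1046 CPM and then at 2704, 1672, 2339 and 2635 CPM (1.12). The ubiquitin ligase Siah2 was at 3.80 and overlapped between the times. The class II gene H2-Oa, at 0, 0, 0 and 0.606 CPM and then 0, 0.345, 47.8 and 109 CPM, rested on 1 library with a count at 12 dpi and 7 at 90 dpi. In the pool-and-split sets Gm28661, mt-Nd3, Siah2 and H2-Oa were at 0.67, 0.79, −2.01 and 2.95.

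Of the 8 genes lower at 90 dpi, 7 also had a negative change in the pool-and-split sets, and 0 passed the test there. Over all genes tested in both kinds of library, 6798 of 13982 had a positive pool-and-split change. The pool-and-split libraries are of the same opc12 and opc90 series, so they are not a separate check of time. Rpl29, a protein of the large ribosomal subunit (chr9:106429454-106431568), was at 1864, 1223, 1553 and 1415 CPM and then at 652, 649, 557 and 607 CPM (−1.30, SE 0.19, unadjusted p = 7.08e-05, adjusted p = 0.358 in edgeR), with −0.93 in the pool-and-split sets and −0.09 in bulk. Ppia, the proline isomerase cyclophilin A, was at 2447, 3334, 2496 and 3010 CPM and then at 1418, 946, 1541 and 1036 CPM (−1.19), with −1.08 in the pool-and-split sets and 0.12 in bulk. Rpl7a was at −1.41 and −1.75 in the 2 library types, and the nuclear transport GTPase Ran at −1.47 and −1.05. Rpl29, Rpl7a and Ppia have near-identical transcripts in 33, 30 and 16 other genes of the data and Ran in 1.

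The other 4 were Mrps35 of the mitochondrial ribosome (−2.23), the potassium channel gene Kcnj3 (−1.62), the succinate dehydrogenase subunit Sdhb (−1.98) and Use1, a SNARE protein of the endoplasmic reticulum (−1.17). Use1 was the exception, with 0.40 in the pool-and-split sets. Sdhb was at 309, 1022, 325 and 498 CPM at 12 dpi and at 139, 140, 122 and 131 CPM at 90 dpi.

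**Figure D3:**
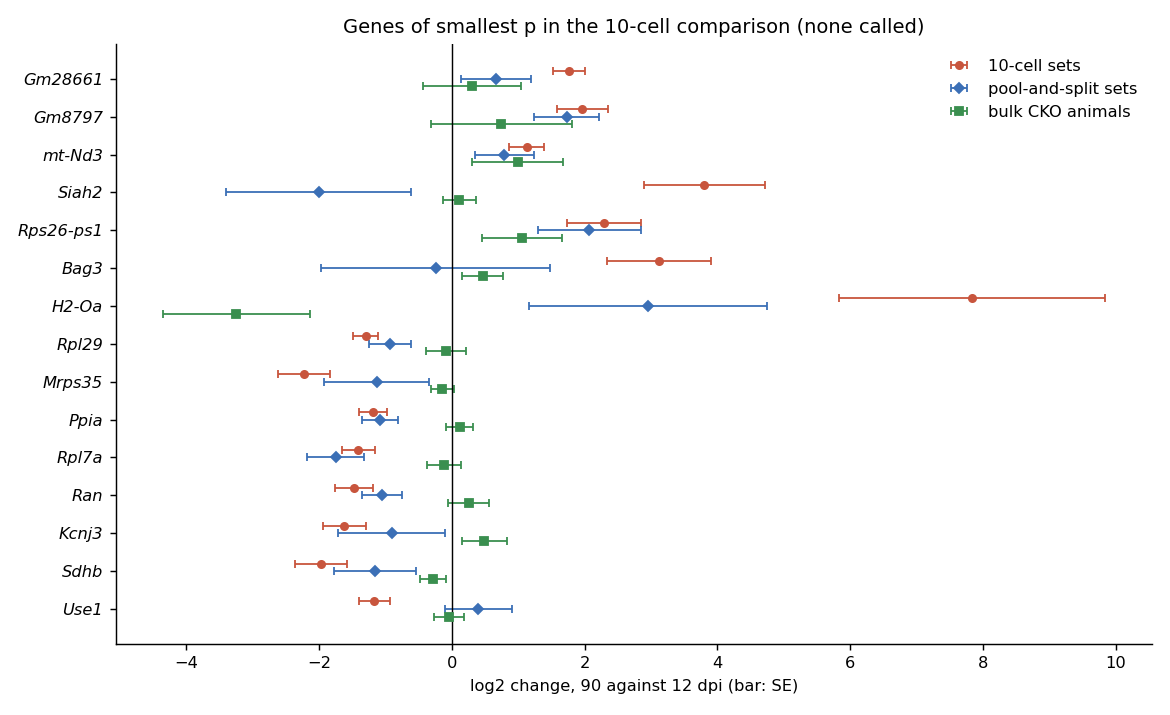
Log2 change from 12 to 90 dpi (x axis, bar SE) of 15 of the genes of smallest p (y axis) in 10-cell sets (red), pool-and-split sets (blue) and bulk CKO animals (green), none of them called. Rpl29 is at −1.30, −0.93 and −0.09 and Ppia at −1.19, −1.08 and 0.12 in the 3 kinds of library.

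Genes of the ribosome and of respiration had medians slightly below 0. Of 101 genes on the ribosomal protein list, 25 were higher at 90 dpi and the median was −0.25, with 0 higher and 21 lower at an unadjusted p under 0.05. The summed level was 108444, 113642, 96852 and 101019 CPM at 12 dpi and 83902, 86334, 89104 and 85669 CPM at 90 dpi, without overlap. This direction depended on scaling: with spike-in scaling 96 of 101 were positive, where the median of all genes was 1.47, and with the mean of log2 values over libraries 76 were positive. Measured against the median of all genes the list was lower under each of the 20 alternatives, by 0.04 to 0.69. The lowest members were Rps2-ps6 (−3.77), a pseudogene by its symbol but annotated as protein-coding, and its parent Rps2 (−2.68). The male sets of Rps2 at 90 dpi were at 5.97 and 12.6 CPM and the female sets at 532 and 673 CPM. Rps2-ps6 and Rps2 have 27 and 28 near-identical copies, so the split of counts among them is uncertain. The highest, Rps19bp1 (1.60) and Rps6ka1 (1.27), were taken by their symbols and are not ribosomal proteins.

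Of 88 nuclear genes of oxidative phosphorylation, 22 were higher and the median was −0.26, with 2 higher (the assembly factors Ndufaf7, 2.19, and Ndufaf8, 1.28) and 14 lower at an unadjusted p under 0.05. Relative to all genes this list ranged from −0.38 to 0.09 over the alternatives, so its direction was not stable. Atp5g2 of the ATP synthase (−1.08) and Ndufs1 of complex I (−1.01) were lowest and the tissue-restricted subunits Cox7b2 (2.52) and Cox7a1 (2.41) highest. The 13 protein-coding genes of the mitochondrial genome had a median of −0.14 (0.07 without the female 2 set at 12 dpi) with 3 of 13 higher, mt-Nd3 and mt-Nd4l (0.69) among them, mt-Co2 and mt-Co1 (−0.38) lowest, and in bulk 13 of 13 were higher (median 0.29).

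The lists tied to the deleted genes had medians from 0.05 to 0.43, and edgeR called 0 of their members. The 20 genes from RAS to ERK had a median of 0.14, with 1 higher and 1 lower at an unadjusted p under 0.05. The kinase gene Map2k1 was at −1.17 (SE 0.64) and the scaffold gene Ksr1 at 5.73 (SE 1.61), from counts in 2 libraries at 12 dpi and 11 at 90 dpi. The 12 genes of ERK output (such as Dusp, Spry and Etv genes) had a median of 0.43, with 8 of 12 higher and 0 past an unadjusted p under 0.05 in either direction. The 19 p53 target genes had a median of 0.05, with 1 higher and 1 lower at an unadjusted p under 0.05. These were the cyclin G gene Ccng1 (1.19, SE 0.47) and the pro-death gene Bax (−1.28, SE 0.55), and the sets of both overlapped.

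Of 17 mitosis genes 9 were higher at 90 dpi and the median was 0.14. This median moved widely with single sets, from −1.20 without the female 1 set at 12 dpi to 2.36, with 14 of 17 higher, without the male 2 set at 12 dpi. With the replicate block it was 1.60, with 13 of 17 higher. Several rested on few libraries. Mki67, the antigen of cycling cells, had a count in 7 libraries at 12 dpi and 13 at 90 dpi (4.07, SE 5.67), and Cdk1, the mitotic kinase, had an SE of 14.75 around −1.73. The 2 members whose sets did not overlap were Birc5, which encodes survivin (at most 0.731 CPM at 12 dpi and 0.773 to 4.92 CPM at 90 dpi), and the cytokinesis motor gene Kif23 (at most 0.668 CPM and 1.08 to 10.3 CPM). The spindle gene Tpx2 was at 2.70 and the cyclin gene Ccnb1 at −3.18. In bulk all 17 were negative (median −0.89), and in the pool-and-split sets the median was −0.69. In the 10-cell sets edgeR called 0 of the 17. Library-level voom called 2 of the 17 and 1775 of all 15178 genes, a similar share.

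The remaining lists had medians of −0.43 (DNA replication, 21 genes), 0.19 (replication stress, 24), 0.31 (G1 regulators, 18), 0.92 (immediate early genes, 20), 0.02 (heat shock, 14), −0.59 (interferon, 19), 0.44 (growth factor receptors and ligands, 20), −0.39 (glutamate and GABA receptors, 20), −0.06 (cholesterol synthesis, 20) and −0.85 (mural cells and fibroblasts, 14). Leaving out 1 set turned the sign of 6 of these 10 medians. The DNA replication median was 0.47 without the male 1 set at 12 dpi, 0.11 without the female 2 set at 12 dpi, 0.033 without the male 2 set at 12 dpi, 0.016 without the male 1 set at 90 dpi and 0.38 with the replicate block. The mural median was −0.06 without the female 2 set at 12 dpi. With spike-in scaling, set means, set medians and voom, where the median of all genes was also above 0, the medians of DNA replication, interferon, neurotransmitter receptors, cholesterol synthesis and mural cells were positive. Immediate early genes, which respond within minutes to stimulation of a cell, had 14 of 20 higher, with 2 higher and 1 lower at an unadjusted p under 0.05. Those were Egr2 (3.72, at most 0.659 CPM in any set), Npas4 (2.15) and Jun, which was at 63.3, 55.2, 45.6 and 68.0 CPM at 12 dpi and at 11.3, 16.8, 10.9 and 32.3 CPM at 90 dpi (−1.74, SE 0.54). Interferon-induced genes had 7 of 19 higher, with 0 higher and 3 lower at that p, namely Oas1a (−2.53), Rtp4 (−3.10) and Ifitm3 (−1.76). The Ifitm3 sets did not overlap. No member of these lists was called.

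The number of genes detected per library was higher at 90 dpi in every set. The median library of each set had a count for 8520.5, 6352.5, 7411 and 7858.5 genes at 12 dpi and for 10241.5, 11507, 9400 and 9431 genes at 90 dpi. Every 90 dpi set was above every 12 dpi set, with means of 7536 ± 911 and 10145 ± 988 genes (SD, n = 4 sets), a ratio of 1.35. The exact two-sided permutation test over the 70 assignments of 8 sets gave p = 0.0286, the smallest this design allows, and 0.0857 after adjustment over 6 measures, so the difference did not pass the adjusted threshold. Without the 12 libraries of over 10% spike-ins at 12 dpi the difference was 1679 genes in place of 2609, and the sets still did not overlap (exact permutation p = 0.0286). Single libraries ranged from 3303 to 12600 genes at 12 dpi and from 6272 to 13028 at 90 dpi.

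The total counts did not run the same way. Their set medians averaged 4452370 at 12 dpi and 4008290 at 90 dpi (exact permutation p = 0.0857), and after thinning each library to 1639364 counts the means were 6606 ± 845 and 9192 ± 854 genes (SD, n = 4 sets; exact permutation p = 0.0286). Before thinning, the pool-and-split sets had 8635 and 8687 genes (exact permutation p = 0.914). The 10-cell and pool-and-split changes then differed by 2557 genes (exact permutation p = 0.0571). After thinning, the pool-and-split values were 7727 and 7875 genes (exact permutation p = 0.771). The 2 changes then differed by 2438 genes (exact permutation p = 0.0571). The spike-in share was 3.71% and 2.44% (exact permutation p = 0.371), and the number of spike-in species with a count was 23.6 ± 1.89 and 25.0 ± 2.12 (SD, n = 4 sets; exact permutation p = 0.486).

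**Figure D4:**
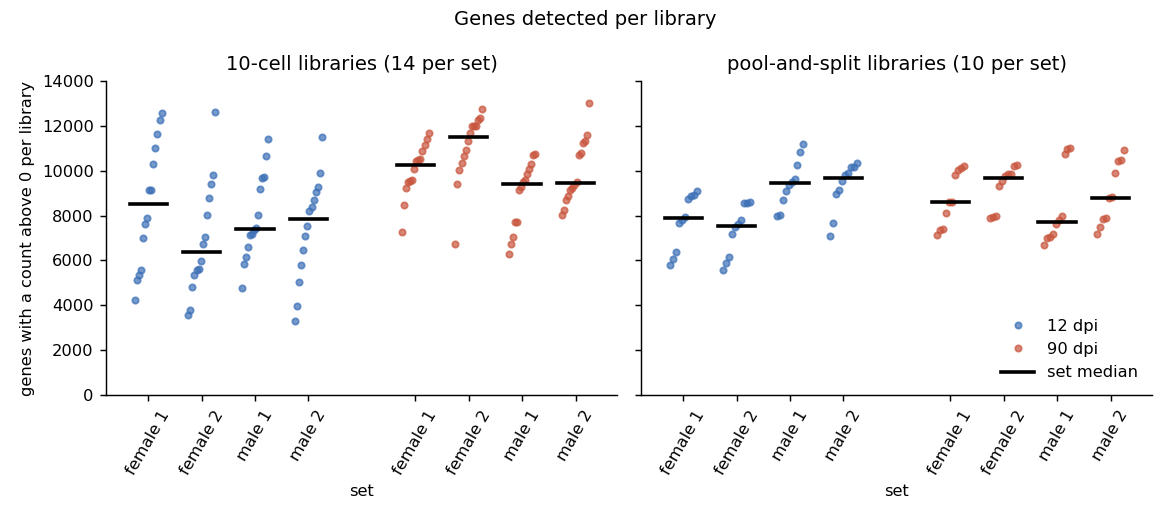
Genes with a count above 0 (y axis) in each library (points) of the 4 sets per time (x axis) for 10-cell and pool-and-split libraries, with the set median (line). The 10-cell medians run from 6352.5 to 8520.5 at 12 dpi and from 9400 to 11507 at 90 dpi, and the pool-and-split medians overlap.

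Detection was higher at 90 dpi across the expression range. Genes were grouped by their mean level in the bulk CKO libraries, and detection was taken after thinning. Of the 2482 genes at 100 CPM and over, the sets at 12 dpi detected 63.6% to 81.7% and those at 90 dpi 84.8% to 93.2%. Of the 7572 genes at 10 to 100 CPM they detected 37.9% to 55.0% and 61.0% to 76.2%. For the 4444 genes at 1 to 10 CPM the ranges were 16.5% to 22.2% and 28.5% to 37.2%, and for the 20125 genes under 1 CPM they were 1.70% to 2.13% and 2.68% to 3.50%. The pool-and-split sets overlapped between the times in each range except the last, where they were 2.06% to 2.56% and 2.96% to 3.48%. Libraries of a 10-cell set tended to be slightly more alike at 90 dpi, though the sets overlapped. Across genes expressed above the median, the median correlation between 2 libraries of a set was 0.3342 to 0.3971 at 12 dpi and 0.3969 to 0.4850 at 90 dpi. These values were not thinned, and the part of detection in them was not tested.

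**Figure D5:**
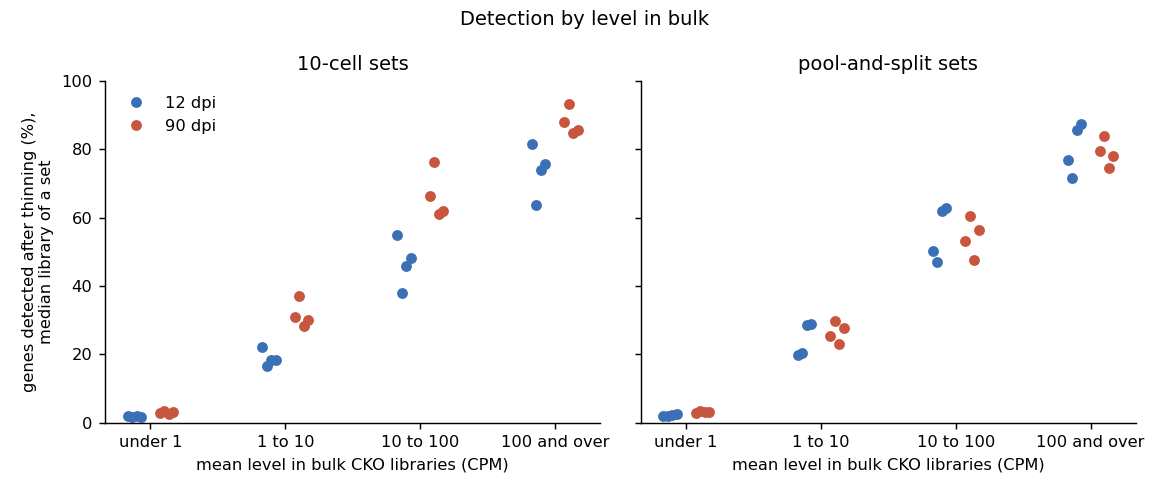
Percent of genes detected in the median library of each set after thinning (y axis) by mean level in bulk CKO libraries (x axis), at 12 dpi (blue) and 90 dpi (red), for 10-cell and pool-and-split sets. At 100 CPM and over the 10-cell sets are at 63.6% to 81.7% at 12 dpi and 84.8% to 93.2% at 90 dpi, while the pool-and-split sets overlap.

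Pseudogenes took 9.30% ± 1.35 of the counts at 12 dpi and 11.8% ± 0.909 at 90 dpi (SD, n = 4 sets) without overlap, with an exact permutation p of 0.0286 and 0.0857 after adjustment over 6 measures. With the mean in place of the median of the libraries of a set, the shares were 10.2% and 11.9%, the sets overlapped and the exact permutation p was 0.0857. The pool-and-split sets were at 9.24% and 9.03% by medians. The share of the mitochondrial genome was 7.54% and 8.78% (exact permutation p = 0.371) and that of the 100 most abundant genes 38.1% and 37.4% (exact permutation p = 0.829).

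Sex was tested as a modifier of the change over time. In edgeR 0 of 16040 genes had a sex by time difference with an adjusted p under 0.05 (1092 at an unadjusted p under 0.05), and DESeq2 called 446.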

How the data were processed

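Laser-captured OPC RNA was sequenced after PCR amplification and Nextera XT library preparation, per the labels' protocols. The deposited values are expected counts per gene that the authors estimated with RSEM, per the submitters' processing notes, which also name Bowtie2 and GRCm38. The file holds 1 column per library. Of the values 13.52% were not whole, so they were rounded per library. The 34623 genes were kept and the 92 spike-ins were set aside. Libraries of a set were summed, and p-values and SEs rest on 4 sets per time. The exceptions are library-level voom, fitted to single libraries, and the bulk fit, whose unit is the animal. Library depth is given in the text.

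The members, gene lists and tests were chosen with earlier results of these data known. Low counts were filtered with filterByExpr (at least 10 counts, 15 in total), TMM gave the scaling, and edgeR 4.0.16 (R 4.3.3) tested time by quasi-likelihood beside a term for sex. Bulk libraries of an animal were summed, and all bulk animals entered the bulk fit. The change over time was compared between 10-cell and pool-and-split libraries as an interaction, with the set as a block. Scripts were tested on simulated data. Library measures were compared by exact two-sided permutation of the sets' medians. Near-identical copies are transcripts of at least 95% identity over 50% of the shorter one (BLAST+ 2.17.0). They were sought only among the genes of the data. A match rests on at least 1 transcript of the other gene, which need not be a copy as a whole (such as Uimc1 for Rpl29). Gene coordinates are those of the deposited table. Their spans overlapped those of GENCODE M21 on GRCm38 for 34325 of 34331 matched genes and had the same start and end for 32020.

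Named are Nf1, Trp53, Pdgfra, Cspg4, Olig2, Sox10, the 8 genes of smallest p per direction above the median level, and, in 13 of the 25 lists, the 2 members of largest change per direction. Some genes that meet this rule are not reported here. Members of the other 12 lists were left to counts and medians, apart from those named next. Chosen after their values were seen were Ermn, Car2, Cnp, Mbp, Mog, Mag, Hapln2, Myrf, Bcas1, Itpr2, Pllp, Gpr37l1, Snap25, Syt1, Gad1, Syn1, C1qb, Birc5, Kif23, Ccng1, Bax, Egr2, Npas4, Jun, Oas1a, Rtp4, Ifitm3, Ndufaf7, Ndufaf8, Hba-a1 and Hba-a2. Of the 99 named genes, 19 have a near-identical copy and 19 overlap another gene, so their counts are less certain.

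Alternatives were DESeq2 1.42.0, RLE and spike-in scaling, other filters on low counts, no sex covariate, a replicate block, set means and medians of library values and library-level voom in limma 3.58.1, thinning, and leaving out each set. Leaving out libraries of over 10% spike-ins was added after seeing the data.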

Additional observations from a re-analysis of the deposited data

Results flagged for a closer look

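In groups of 4 sets, 1 set stood far from the other 3 in 27 of 210 groups examined, by a gap over 0.829 of the range. That limit is passed by about 1 in 20 groups only where values are normally distributed. Levels near 0 CPM are skewed, and some genes were chosen after their values were seen. The count therefore cannot be set against that rate. At 12 dpi the female 1 set stood apart for Siah2 (7.62 CPM), Enpp6 (22.3 CPM), Ksr1 (0.0473 CPM) and Hapln2 (0.679 CPM). The female 2 set at 12 dpi did so for Nf1 (148 CPM), Gm8797 (65.6 CPM), Ptprc (47.8 CPM), Mog (104 CPM) and Ifitm3 (552 CPM). The male 1 set at 12 dpi did so for Sox9 (4.22 CPM), Alas2 (9.51 CPM) and Cnp (466 CPM), and the male 2 set for H2-Oa (0.606 CPM), Olig2 (82.4 CPM), Mycl (64.4 CPM), Tcf7l2 (132 CPM) and Cdk1 (10.3 CPM).

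At 90 dpi the female 1 set stood apart for Slc1a3 (174 CPM). The male 1 set did so for Nkx2-2 (8.09 CPM), Map2k1 (57.4 CPM), Ptprc (41.9 CPM), Ermn (49.2 CPM) and Gad1 (978 CPM), and the male 2 set for mt-Co1 (11292 CPM), Kif23 (10.3 CPM), Oas1a (27.6 CPM) and Rtp4 (9.61 CPM).

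The change from 12 to 90 dpi differed between 10-cell and pool-and-split sets by 473115 in total count and by 2.74 percentage points in the pseudogene share of counts. In both cases the exact permutation test gave p = 0.0286, the smallest the design allows, and 0.0857 after adjustment over 6 measures. With set means in place of set medians both had an exact permutation p of 0.0571.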

How the results depend on the processing

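The spread between 4 sets per time limits the tests. edgeR called 0 genes in the 10-cell comparison, and with RLE scaling, other filters on low counts, no sex covariate, thinning, each set left out (0 to 0) or libraries of over 10% spike-ins left out it also called 0. DESeq2 called 331 genes, spike-in scaling 56, the set mean of log2 values 96, the set median 2 and library-level voom 1775. The voom fit was made on single libraries with the set as a random effect, and its set correlation was 0.00677. Its calls thus treat libraries of a set as nearly independent and do not rest on 4 sets per time. The median change of all genes was 1.47 with spike-in scaling, 0.46 with set means, 0.49 with set medians and 0.58 with voom. It was 0.10 with the replicate block and 0.06 with no filter on low counts. In these settings the values of named genes were shifted to bring this median to that of the main fit. An unshifted value can therefore have the other sign. List medians were not shifted unless given relative to all genes. In the pool-and-split sets DESeq2 called 588, and no filter and a mean of at least 10 CPM called 1 each. DESeq2 called 396 genes for the difference between library types, 446 for sex by time and 2 in bulk, where the 14 CKO animals alone gave 1. Sets with the same label did not deviate together (correlations from −0.04 to 0.01), and the replicate block, pairing sets by label, called 0 genes. The share of the 100 most abundant genes, −0.68 points at 90 dpi, was 1.03 without libraries of over 10% spike-ins and ran from −2.51 to 1.75 with each set left out.

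Of 1928 values of the 99 named genes under the alternatives, 1740 kept direction and call, 79 became called (38 of them with voom) and 109 took the opposite sign, in 35 genes. Aspa, Ermn and Car2 kept a positive sign under each alternative. The cause was not tested. Signs turned as follows, in shifted values where the setting was shifted. With spike-in scaling: Nf1 0.42, Sox10 −0.0059, Nefm −0.30, Ctss 0.55, Alas2 −0.72. With the replicate block: Nf1 1.01, Pdgfra 0.18, Mycl 0.65, Cdk1 3.50, Ptprc 2.73, Ctss 0.74, Cox7b2 −1.42. With no sex covariate: Ctss 0.47, Alas2 −0.40, Cox7b2 −1.37. With thinning: Ctss 0.0090, Alas2 −0.20. Without libraries of over 10% spike-ins: Olig2 0.0059, Ptprc 2.11, Ctss 1.25. With set means: Trp53 0.12, H2-Oa −0.015, Use1 0.41, Pdgfra 0.38, Olig2 0.010, Nkx2-2 −0.33, Tcf7l2 0.042, Qdpr 1.01, Tpx2 −0.13, Mki67 −0.15, Ksr1 −0.27, Slc4a4 0.32, Ctss 1.83, Slc2a1 0.10, Cdh5 −0.32, Alas2 −0.50, Ndufs1 0.064, Cox7b2 −0.52, mt-Nd4l −0.093, Gpr37l1 0.31, Bax 0.073, Egr2 −0.29, Hapln2 −0.039. With set medians: Trp53 0.39, Siah2 −0.27, Mrps35 0.39, Pdgfra 0.74, Olig2 0.25, Opcml 0.42, Tcf7l2 0.17, Qdpr 0.88, Tpx2 −0.54, Slc4a4 0.069, Slc17a6 0.18, Ctss 3.28, Slc2a1 0.63, Cox7a1 −0.41, Gpr37l1 0.38, Bax 0.10. With voom: Trp53 0.36, H2-Oa −0.21, Use1 0.24, Pdgfra 0.61, Olig2 0.24, Nkx2-2 −0.51, Tcf7l2 0.33, Qdpr 0.97, Tpx2 −0.30, Mki67 −0.21, Ksr1 −0.39, Slc4a4 0.21, Slc17a6 0.016, Ctss 2.34, Slc2a1 0.034, Cdh5 −0.37, Alas2 −0.96, Cox7b2 −0.87, mt-Nd4l −0.12, Gpr37l1 0.014, Bax 0.19, Egr2 −0.42, Hapln2 −0.13. Leaving out each set in turn moved these genes across 0, from lowest to highest: Nf1 −1.42 to 2.02, Trp53 −0.90 to 0.57, Pdgfra −0.89 to 0.78, Olig2 −0.88 to 0.57, Mycl −5.73 to 2.07, Tcf7l2 −2.42 to 0.56, Qdpr −0.65 to 0.19, Ccnb1 −4.79 to 0.0082, Cdk1 −7.98 to 5.84, Nefm −0.24 to 1.03, Ptprc −4.87 to 4.83, Ctss −0.97 to 1.96, Alas2 −2.58 to 2.20 and Cox7b2 −2.43 to 6.86.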
